A study of Mus musculus with 2 samples.

Results

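Regulatory T cells that transcribe Foxp3 were examined among immune cells of GL261 gliomas, in 1 single-cell library from mice that drank metformin and 1 from mice that drank DW control water. The cells were chosen by measured transcripts, not by a protein stain. A cell entered the gate with at least 1 UMI (unique molecular identifier, 1 captured RNA molecule) of Foxp3 and at least 1 of the CD3 genes Cd3d, Cd3e and Cd3g together. It could carry no UMI of Cd8a or Cd8b1, at most 1 each of Trdc and Cd79a, and at most 3 of C1qa, C1qb and C1qc together. The gate held 414 of 10041 retained cells, 191 of 4606 in the metformin library and 223 of 5435 in the control water library.

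Both groups were C57BL/6 mice with GL261 cells, a mouse glioma line, placed in the brain. On day 20 the tumour region was dissected, cells with high CD45, the common leukocyte antigen, were sorted, and a 10x Genomics 3' v3 library was made. The metformin group had metformin in the drinking water and the control group had DW control water, with no other difference given in the labels. How many mice each library pooled, the metformin dose and the sort gates are not stated in the labels. With 1 library per group there is no replicate, so no difference between the drinking waters was tested, and an effect of the water and any other difference between the 2 libraries cannot be told apart.

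Foxp3 is the transcription factor that maintains regulatory T cells, which restrain other immune cells. They take up interleukin 2 through CD25 (Il2ra), remove costimulatory ligands from antigen-presenting cells through CTLA-4 (Ctla4), and often carry Helios (Ikzf2) and OX40 (Tnfrsf4). In tumours many of them are activated effector cells, and in mice granzyme B (Gzmb) is among the molecules by which they act on target cells. Metformin is a biguanide that inhibits mitochondrial complex I and activates the energy sensor AMPK.

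The libraries held 5473 metformin and 6174 control water barcodes. At least 300 detected genes and at most 10% mitochondrial UMIs were asked of a retained cell. The gated cells held 1670998 and 1932352 UMIs in the metformin and control water libraries, with medians of 7098 and 6238 UMIs per cell. The libraries shared 9 barcodes, and none of them was a gated cell in either. Scrublet called 36 metformin and 59 control water cells doublets, of which 1 and 0 were in the gate, and none was removed. Below, a level is the summed UMIs of a gene per 1000000 UMIs of the gate (CPM). Its 95% interval is an exact Poisson one, and the interval of a ratio is exact given the summed counts. These cover counting error only, since cells of 1 library are not replicates. A gene is called higher or lower by a rule of size: at least 20 UMIs and 20 CPM in 1 of the compared sums, UMIs in at least 10 cells on the higher side, a ratio of at least 1.5 in either direction and an interval that leaves out 1. The intervals are not adjusted for the number of genes compared, so counting error alone puts some genes past the rule.

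Foxp3 itself set the gate, so its values are a description. The gene lies at chrX:7573644-7595245 on the plus strand of GRCm38. Gated cells had a median of 2 Foxp3 UMIs in both libraries, and at most 20 in the metformin and 21 in the control water library. Just inside the threshold, 47 metformin and 71 control water cells had exactly 1 Foxp3 UMI, and their Ikzf2 level was 1889 and 1789 CPM. Just outside it, the 381 metformin and 573 control water cells that passed the same gate with no Foxp3 UMI and at least 1 Cd4 UMI had 207 and 180 CPM of Ikzf2. In Ikzf2, cells with 1 Foxp3 UMI therefore stood with the other gated cells and apart from Foxp3-negative CD4 T cells. Not all genes did so, but the examples here rest on few cells. In the metformin library such cells had 54.0 CPM of Cd40lg, against 4.51 CPM with 2 to 3 Foxp3 UMIs and 76.6 CPM with none. Only 6 metformin gated cells had a Cd40lg UMI. The Ifng level of metformin cells with 1 Foxp3 UMI was 223 CPM, against 54.1 and 424 CPM. Of the 62 Ifng UMIs behind the 223 CPM, 59 lay in 1 cell. The control water values were 9.49 CPM of Cd40lg and 21.4 CPM of Ifng, against 3.74 and 20.6 CPM with 2 to 3 UMIs. A Cd4 UMI was present in 68.6% of metformin and 61.4% of control water gated cells. A missed Foxp3 transcript can also place a regulatory T cell outside the gate. With each gated cell thinned to 2573 UMIs, Foxp3 was detected in 66.1% of metformin and 61.0% of control water cells. The Foxp3-negative CD4 T cells may therefore include regulatory T cells, and how many was not tested.

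Of all retained cells with a Foxp3 UMI, 311 in the metformin and 324 in the control water library, the gate left out 87 and 65 for a Cd8a or Cd8b1 UMI. Those cells had 710 and 725 CPM of Gzma, a granzyme of CD8 T and NK cells, against 25.7 and 24.8 CPM inside the gate. The cells with exactly 1 such UMI, 37 and 30 in the metformin and control water libraries, had 8.61 and 7.94 CPM of Gzma and 1242 and 1283 CPM of Ikzf2. Both values are on the side of the gated cells, while their Gzmb level was 3379 CPM in the metformin and 691 CPM in the control water library, further apart than the 1943 and 922 CPM inside the gate.

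The labelled cell type was checked on the other 4 markers, with each cell thinned to 2573 UMIs so that depth was equal. Ikzf2 was detected in 89.4% of gated cells of the metformin library and 89.0% of the control water library, against 23.9% and 18.7% of Foxp3-negative CD4 T cells in the same libraries. Tnfrsf4 was detected in 81.1% and 83.0% of gated cells, against 44.5% and 48.6% of Foxp3-negative CD4 T cells. Ctla4 was detected in 68.9% and 67.0%, against 25.5% and 29.0%. Il2ra was detected in 52.8% and 57.0%, against 9.89% and 15.0%. In B cells, which should lack these genes and show the level of free RNA, the 4 shares lay between 0 and 3.27%, at median depths of 5168 and 5624 UMIs before thinning. All 4 markers were thus more frequent in the gate than in either comparison population, in both libraries.

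**Figure D1:**
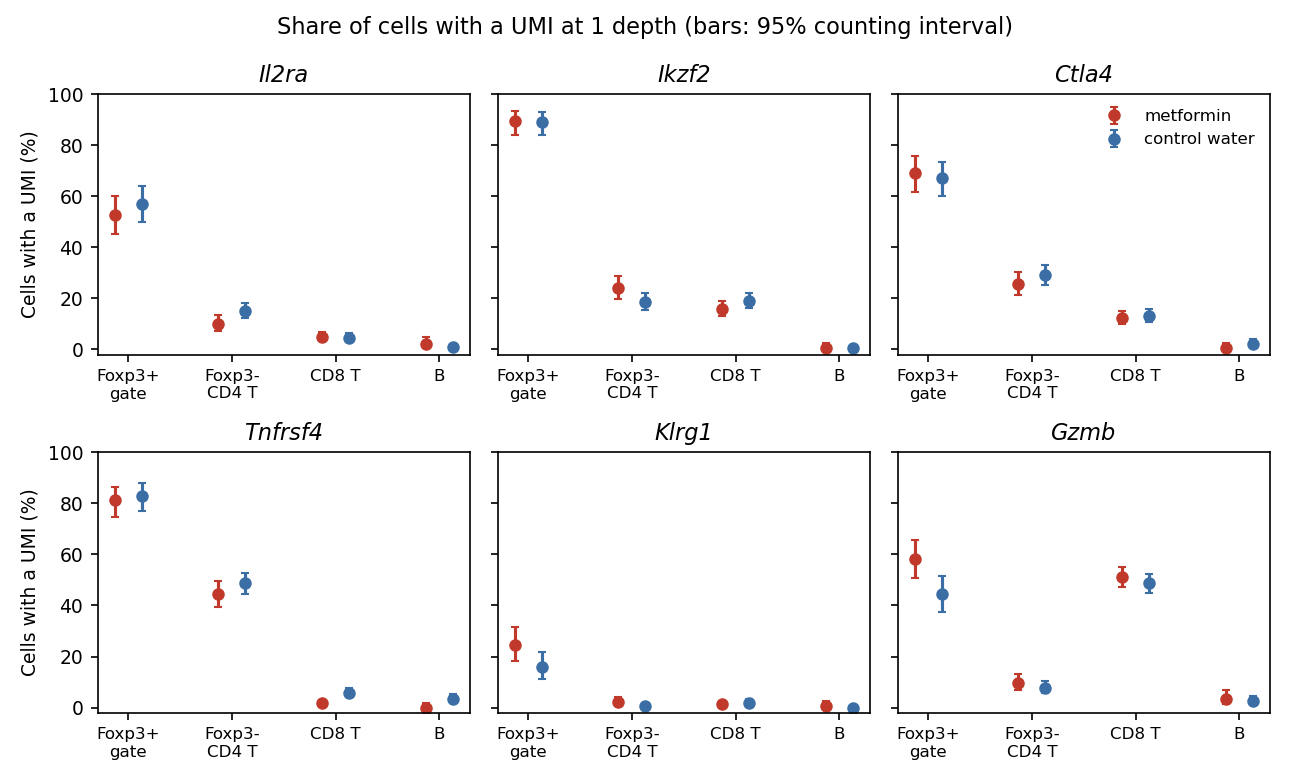
Share of cells with at least 1 UMI of 6 genes (y axis, percent) in Foxp3-gated cells, Foxp3-negative CD4 T cells, CD8 T cells and B cells, metformin (red) left of control water (blue), each cell thinned to 2573 UMIs, with exact 95% counting intervals. Ikzf2 was found in 89.4% and 89.0% of gated cells, and Gzmb in 58.3% and 44.5%.

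The gate did not use the other genes of the regulatory T cell programme, which were compared with Foxp3-negative CD4 T cells of the same library. Of 5636 genes with enough UMIs, 533 were higher in gated cells in both libraries (9.46% of those compared) and 196 were lower in both (3.48%). Of the 22 measured genes of the regulatory T cell identity list, 16 were higher and 1 was lower. The median log2 ratio of that list was 1.64 in the metformin and 1.60 in the control water library, against 0.13 in both for all genes compared.

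Il2ra had 467 CPM in gated and 62.8 CPM in Foxp3-negative CD4 T cells of the metformin library, a ratio of 7.45, and 447 and 71.3 CPM in the control water library, a ratio of 6.27. Ikzf2 had ratios of 7.23 and 8.73. Lrrc32, which encodes GARP, the surface anchor of latent TGF-beta, had ratios of 9.68 and 12.5, and Itgb8, a chain of an integrin that activates latent TGF-beta, of 6.44 and 7.18. The TNF receptor family members Tnfrsf18 (3.02 and 2.98), Tnfrsf9 (3.96 and 5.23) and Tnfrsf4 (2.66 and 2.79) were higher in gated cells, as was Ctla4 (3.84 and 3.06). The gene that went the other way was Nrp1, the semaphorin receptor neuropilin 1, with 71.2 CPM in gated and 119 CPM in Foxp3-negative cells of the metformin library, and 69.3 and 111 CPM in the control water library. Nrp1 is often used in mice to mark thymus-derived regulatory T cells, yet in both libraries it was lower in the gate, by ratios of 0.598 and 0.624.

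Effector genes were among the highest-ranked. Klrg1, an inhibitory lectin-like receptor of terminally differentiated lymphocytes, had 180 CPM in gated and 11.3 CPM in Foxp3-negative CD4 T cells of the metformin library, and 100.4 and 3.67 CPM in the control water library. Gzmb had 1943 and 148 CPM in the metformin library, a ratio of 13.2, and 922 and 71.3 CPM in the control water library, a ratio of 12.9. Of 23 measured effector and tissue-type genes 14 were higher in both libraries, among them Il1rl1, the interleukin 33 receptor (7.26 and 5.60), Itgae, the CD103 integrin chain (5.61 and 22.7), Prdm1, which encodes the regulator Blimp-1 (3.22 and 3.0), and Areg, the growth factor amphiregulin (3.85 and 4.11). Of 16 measured suppressive effector genes 11 were higher, among them Il10 (3.45 and 6.31), Fgl2 (4.47 and 4.22) and Entpd1, which encodes CD39 (3.24 and 2.37). The highest-ranked genes also included Neb, Rapsn, Ncmap, Arl5a and Cmtm7, and Ccr2, a chemokine receptor for inflamed tissue, with ratios of 6.29 and 5.39.

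The lowest-ranked genes included helper and resting genes. Ccl1, a chemokine, had 0 UMIs in 191 gated metformin cells and 6 in 223 gated control water cells, against 1009 and 2837 UMIs in the Foxp3-negative CD4 T cells. Tnfsf8, the CD30 ligand, had 0 and 40 UMIs against 637 and 1206. Ifng, the gene of interferon gamma, had ratios of 0.165 and 0.0378, Cd40lg of 0.149 and 0.101 and Tnfsf11 of 0.0891 and 0.122. Of 16 measured resting and lymphoid genes 9 were lower in both libraries, including Tcf7 (0.144 and 0.183), Lef1 (0.409 and 0.521), Bcl2 (0.208 and 0.282) and Ccr7 (0.265 and 0.457). Within that list 2 genes were higher in gated cells, among them the kinase gene Txk (1.56 and 1.92). Gated cells also had more of the cell cycle and interferon lists: 23 of 32 cell cycle genes and 16 of 27 interferon-response genes were higher in both libraries and none was lower. Mki67, a proliferation marker, had 237 and 252 CPM in gated cells, against 82.2 and 69.9 CPM.

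**Figure D2:**
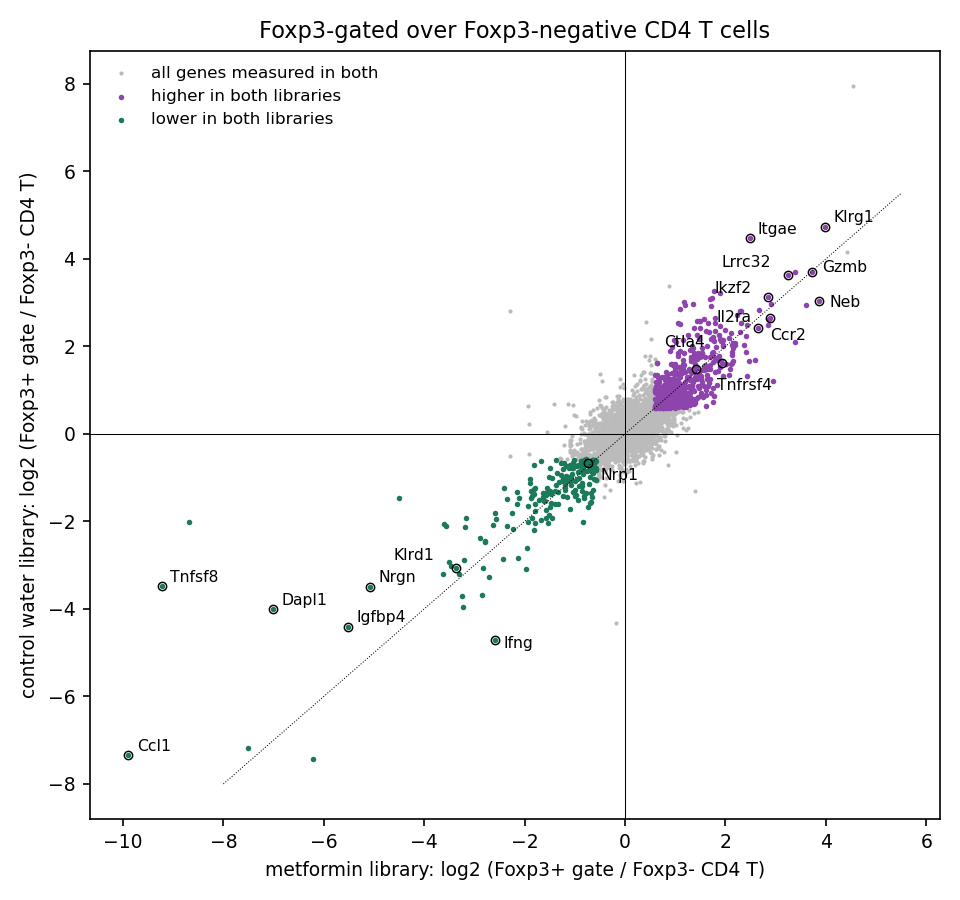
Each point is 1 of 5636 genes, with the log2 ratio of Foxp3-gated over Foxp3-negative CD4 T cells in the metformin library (x axis) and the control water library (y axis), 0.5 UMI added to each sum. Genes higher (533) or lower (196) in both libraries are coloured, circled genes are named, and the dotted line marks equal ratios.

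Gated cells differed among themselves in the effector genes. In the metformin library 71 of 191 cells carried a Klrg1 UMI, and these had 2724 CPM of Gzmb, against 1270 CPM in the 120 without it. In the control water library 55 of 223 cells carried one, with 1363 CPM, against 739.5 CPM in the 168 without it. The ratios were 2.15 (1.995 to 2.31) and 1.84 (1.68 to 2.03). Klrg1-positive cells also had more Areg (3.78 and 1.45), Lgals1, which encodes galectin 1 (1.65 and 1.58), Batf (1.41 and 1.91) and Mki67 (1.61 and 2.14), and less Bcl2 (0.305 and 0.265) and Tcf7 (0.386 and 0.0492). For each of these genes the counting interval left out 1 in both libraries. The 10 richest gated cells held 86.2% of the metformin and 71.9% of the control water Areg UMIs. Such a spread between cells is not covered by these intervals. The Klrg1-positive cells were deeper, with medians of 8285 and 7445 UMIs, against 6452 and 5992 in the cells without it.

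A split on Gzmb was added after its values were seen. The 132 metformin and 114 control water cells with a Gzmb UMI had less Ccr7 than the cells without (ratios of 0.0858 and 0.228), less Tcf7 (0.111 and 0.134) and less Nrp1 (0.327 and 0.238). They had more Il10 (3.23 and 10.1), Lag3 (3.85 and 1.81), Icos (2.11 and 2.14) and Itgb8 (3.36 and 2.24). The Gzmb-positive cells had medians of 7850 and 6498 UMIs, against 5657 and 5916 in the cells without it, and the part of depth in these contrasts was not tested. Ccr8-positive cells, 25 and 32, had more Tnfrsf4 (2.41 and 1.47), Ctla4 (2.04 and 1.33) and Lag3 (2.09 and 1.93), while their Gzmb ratio was 1.35 (1.24 to 1.46) in the metformin and 1.06 (0.942 to 1.19) in the control water library.

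The first question the design puts to these cells is their abundance. They made up 4.15% (3.59 to 4.76) of retained cells in the metformin library and 4.10% (3.59 to 4.66) in the control water library, with Clopper-Pearson intervals. The ratio was 1.01 with an interval of 0.829 to 1.23. Of T-gated cells they were 9.50% and 9.97%. Among CD4 cells, that is gated plus Foxp3-negative CD4 T cells, they were 33.4% (29.5 to 37.4) and 28% (24.9 to 31.3), a ratio of 1.19 with an interval of 0.977 to 1.45. The Foxp3-negative CD4 T cells were 8.27% and 10.5% of retained cells, a ratio of 0.785 (0.687 to 0.895). They may include regulatory T cells whose Foxp3 was missed. There were 3.77 CD8 T cells per gated cell in the metformin library and 3.31 in the control water library. The counting intervals of the ratio over retained and T cells held 1. The interval over CD4 cells treats the counts as Poisson. That is too wide where gated cells are 33.4% and 28% of the cells counted. It therefore cannot settle whether the ratio of 1.19 leaves out 1. With 1 library per group, no difference in the share of gated cells was tested.

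The share depended on 1 setting of the gate. With no UMI of Trdc, the C1q genes or Cd79a allowed, 81 and 127 cells remained in the metformin and control water libraries, and the ratio was 0.753. C1q UMIs, which macrophages and microglia make, were present in 56.5% of metformin and 39.9% of control water gated cells. They were present in 46.0% and 39.4% of B cells, which should lack them, and in 51.7% and 41.5% of CD8 T cells. Their part in the 0.753 was not tested.

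Metformin and control water gated cells differed little in the 4 marker genes checked above. Il2ra had 467 CPM (435 to 501) in the metformin library and 447 CPM (417 to 477) in the control water library, a ratio of 1.05 (0.949 to 1.15). Ikzf2 had 1493 and 1569 CPM, a ratio of 0.952 (0.902 to 1.004), Ctla4 770 and 713 CPM, a ratio of 1.08 (0.999 to 1.17), and Tnfrsf4 1615 and 1590 CPM, a ratio of 1.02 (0.964 to 1.07). These intervals leave out a 1.5-fold difference in either direction for all 4 genes. Other identity genes lay on either side of 1. Tnfrsf18 (0.995), Capg (1.03), Itgae (0.993) and Nrp1 (1.03) had intervals that held 1. Tnfrsf9 had 529 and 648 CPM, a ratio of 0.817 (0.748 to 0.891), and Swap70 a ratio of 0.672 (0.542 to 0.831). Izumo1r, the folate receptor family member FR4, had 483 and 391.8 CPM, a ratio of 1.23 (1.12 to 1.36), and Socs2, a cytokine signalling inhibitor, a ratio of 1.37 (1.10 to 1.70). None of these reached the rule of size. Swap70 lay near its limit: it stayed uncalled in only 5 of 13 alternative settings, with ratios of 0.583 to 0.709, and was lower in the others.

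Over 5914 genes with enough UMIs, 117 were higher (1.98%) and 246 lower (4.16%) in the metformin library. Without the single richest cell of each library, 85 and 193 of these were also called. With at least 1000 detected genes per cell, 113 and 241 were also called. Far fewer were shared under 2 other settings. These were 42 and 75 with no UMI of Trdc, the C1q genes or Cd79a allowed, and 33 and 64 without cells with an Mki67 or Top2a UMI. Of 23 measured identity genes none was higher and 1 was lower, the tetraspanin gene Cd81, with 102 and 157 CPM and a ratio of 0.649 (0.535 to 0.785). Cd81 kept its call in 11 of 13 alternative settings, with ratios of 0.572 to 0.924. The median log2 ratio of the identity list was 0.02, against -0.04 for all genes. Of 24 measured effector and tissue-type genes 6 were higher and none was lower, with a median of 0.19. Of 17 measured suppressive effector genes 3 were higher and 1 was lower, with a median of 0.14.

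**Figure D3:**
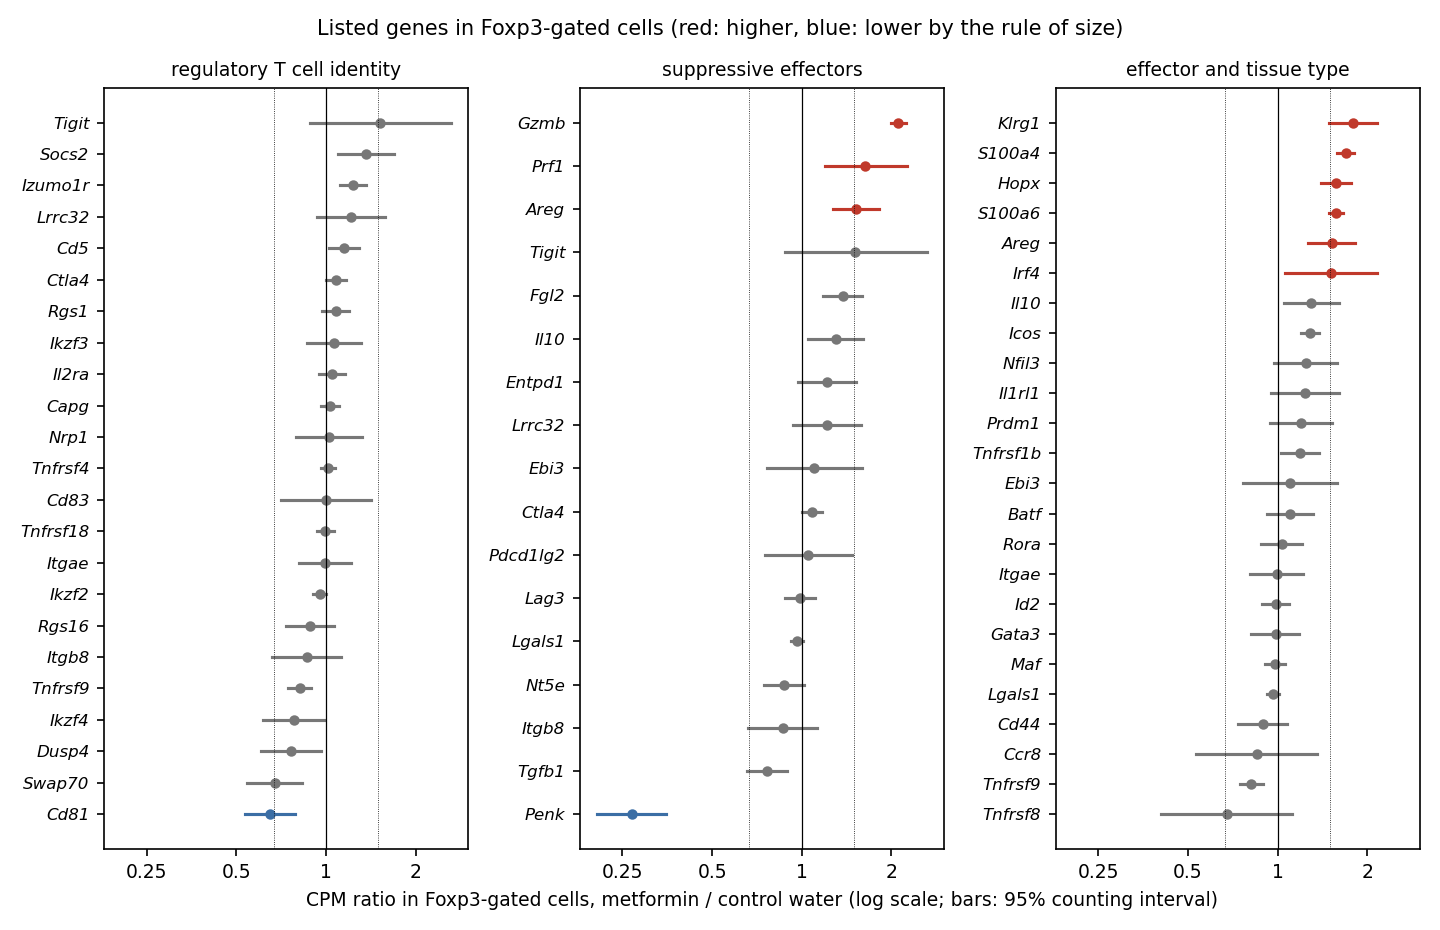
CPM ratio of metformin over control water in Foxp3-gated cells (x axis, log scale) for the measured genes of the identity, suppressive effector and effector and tissue-type lists, with exact 95% counting intervals. Red marks genes called higher, blue lower and grey neither, and dotted lines mark 1.5-fold. Identity genes lie around 1 while Gzmb (2.11) and Klrg1 (1.79) lie to the right.

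Gzmb was higher in the metformin library. It lies at chr14:56258838-56262260 on the minus strand of GRCm38. It had 3247 UMIs in the metformin and 1782 in the control water gated cells, that is 1943 CPM (1877 to 2011) and 922 CPM (880 to 966), a ratio of 2.11 (1.99 to 2.23). Per cell the median was 5 Gzmb UMIs in the metformin and 1 in the control water library. Of 191 metformin cells 132 had a Gzmb UMI and 46 had at least 20. Of 223 control water cells 114 had one and 27 had at least 20. At equal depth Gzmb was detected in 58.3% and 44.5% of gated cells, against 3.37% and 2.69% of B cells. The richest cell held 9.73% and 9.32% of the UMIs, and without it the ratio was 2.10. Both more cells with the transcript and more UMIs in those cells were thus seen in the metformin library.

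The Gzmb difference recurred on both sides of the splits given here. It was 1.999 in Klrg1-positive and 1.72 in Klrg1-negative cells, and 1.89 in Mki67-positive and 2.20 in Mki67-negative cells. It was 2.16 in Cxcr3-positive and 2.15 in Cxcr3-negative cells. Between Nrp1-positive and Nrp1-negative cells it was more uneven: Nrp1-positive cells had 1284 CPM in the metformin and 199 CPM in the control water library, a ratio of 6.43 (5.36 to 7.78), and Nrp1-negative cells 2346 and 1312 CPM, a ratio of 1.79 (1.68 to 1.90). Between the libraries 1.1% of 5546 genes were called higher and 1.64% lower in Foxp3-negative CD4 T cells, and 1.18% of 5237 higher and 0.821% lower in CD8 T cells. In Foxp3-negative CD4 T cells Gzmb was also higher, with 148 and 71.3 CPM and a ratio of 2.07 (1.81 to 2.37). In CD8 T cells it was not called, with 1555 and 1633 CPM and a ratio of 0.952 (0.928 to 0.977). Whether the ratio differs between these populations was not tested. Regulatory T cells with missed Foxp3 may lie among the Foxp3-negative CD4 T cells, and their part in the 2.07 was not tested.

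Gzmb outnumbered Gzma in the gate. For each Gzma UMI there were 75.5 Gzmb UMIs in the metformin and 37.1 in the control water gated cells, against 0.599 and 0.442 in CD8 T cells. Gzma itself had 25.7 and 24.8 CPM in gated cells, a ratio of 1.04 (0.670 to 1.60), and was detected at equal depth in 7.78% and 4.0% of them, near the 5.29% and 4.81% of B cells.

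Klrg1, at chr6:122270596-122282882 on the minus strand, followed Gzmb. It had 300 UMIs in 71 metformin cells and 194 UMIs in 55 control water cells, that is 180 and 100.4 CPM, a ratio of 1.79 (1.49 to 2.15). At equal depth it was detected in 24.4% and 16.0% of gated cells, against 0.481% and 0% of B cells. Within the cells that carried it the level was 388 and 342 CPM, a ratio of 1.13 (0.942 to 1.36), and 53 of 71 metformin and 42 of 55 control water positive cells held 1 to 4 UMIs. At counts this low, more positive cells and more transcript per cell cannot be told apart.

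**Figure D4:**
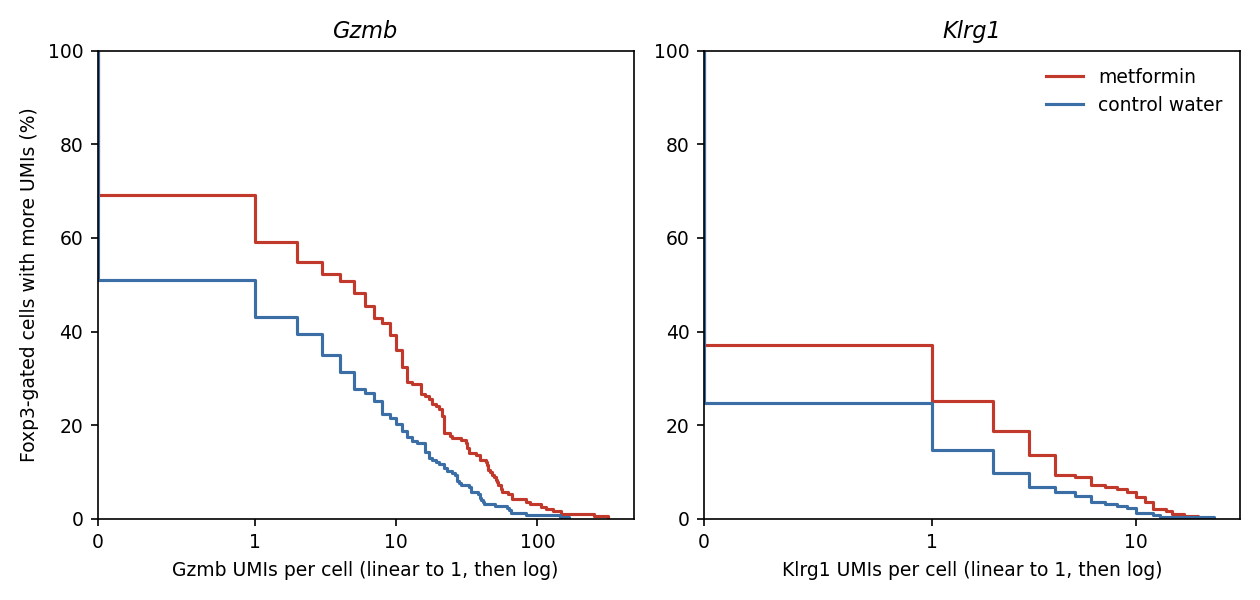
Share of Foxp3-gated cells (y axis, percent) with more than a given number of UMIs (x axis, linear to 1 and log above) of Gzmb (left panel) and Klrg1 (right panel) in the metformin (red, 191 cells) and control water (blue, 223 cells) libraries. The metformin curve starts at 69.1% for Gzmb and 37.2% for Klrg1, and the control water curve at 51.1% and 24.7%.

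Of 56 genes called between the libraries and chosen for naming, 8 kept their call under all 13 alternative settings. Gzmb, Klrg1, Ccl5 and Oxsr1 stayed higher, with ratios of 1.78 to 2.30, 1.67 to 3.16, 1.55 to 2.27 and 1.72 to 2.96. Bcl2, Ier5l, Gh and Igkc stayed lower. A ratio of 2 in place of 1.5 is not among those settings, and under it Klrg1, Ccl5 and Bcl2 are not called and only 13 genes are higher in all. Ccl5, a chemokine that draws T cells, had 1428 CPM in the metformin and 831 CPM in the control water gated cells, a ratio of 1.72 (1.61 to 1.83). It was also higher in Foxp3-negative CD4 T cells, at 1.52, and in CD8 T cells the ratio was 0.923. Oxsr1, a stress-responsive kinase that acts on ion transporters, had 56.9 and 24.3 CPM, a ratio of 2.34 (1.63 to 3.39), against ratios of 0.862 in Foxp3-negative CD4 and 1.02 in CD8 T cells.

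Other effector genes were higher in the metformin library by smaller or less settled margins. S100a4 and S100a6, calcium-binding proteins of activated and motile cells, had ratios of 1.69 (1.58 to 1.81) and 1.57 (1.48 to 1.65), and each kept its call in 12 of 13 settings. Cxcr6, a receptor of tissue T cells, had 177 and 114 CPM and a ratio of 1.56 (1.30 to 1.86). Prf1, which encodes perforin, had 59.2 and 36.2 CPM and a ratio of 1.64 (1.19 to 2.25), and 48.6% of its control water UMIs lay in 1 cell. Areg (1.52) and Irf4 (1.51) were not called without their richest cell. Il10 was detected in 18.3% and 11.5% of cells at equal depth, and its 115 and 89.0 CPM, a ratio of 1.30 (1.05 to 1.60), did not reach the rule of size. Ifng had 70.0 and 17.6 CPM, and 1 metformin cell held 50.4% of the UMIs. Without the richest cell of each library its ratio was 2.31, against 3.98 with it, and at equal depth 7.22% and 3.50% of gated cells had an Ifng UMI. The immediate early genes Fos (1.74) and Fosb (1.85), which rise with stimulation and with tissue handling, were higher too. Of 23 measured handling and stress genes these 2 were higher and 1, Atf3, was lower, and the part of handling in the differences was not tested.

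Genes that were lower in the metformin library included survival and recirculation genes. Bcl2, the anti-apoptotic protein, had 28.7 and 52.3 CPM, a ratio of 0.550 (0.381 to 0.782). Ccr7, the lymph node homing receptor, had 23.3 and 74.0 CPM and was found in 14 and 42 cells, a ratio of 0.315 (0.215 to 0.452). It was lower also in Foxp3-negative CD4 T cells, at 0.544, and in CD8 T cells the ratio was 1.38. Of 12 measured resting and lymphoid genes these 2 were lower, while Tcf7 (0.833) and Lef1 (0.811) were not called. Pdcd1, which encodes PD-1, had 61.0 and 99.4 CPM, a ratio of 0.614 (0.478 to 0.785), and was detected at equal depth in 14.4% and 22.0% of gated cells. Bhlhe40, a transcription factor of activated T cells, had a ratio of 0.635, Ier5l of 0.252 and Atf5 of 0.196. In the apoptosis family around Bcl2, the pro-apoptotic Bcl2l11 (1.54) and Bid (1.71) were higher, each in 7 of 13 settings, and the other 8 measured members were not called.

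Some interferon-response and cell cycle genes were lower, and the medians of both lists depended on the setting. Of 28 measured interferon-response genes 8 were lower and none was higher, with a median log2 ratio of -0.13. The chemokine gene Cxcl10 had 56.9 and 194 CPM, a ratio of 0.294 (0.232 to 0.369), and 43.3% of its control water UMIs lay in 1 cell. Without the richest cell only Cxcl10 (0.453) and Oasl2 (0.605) of the 8 were called, and where a Cd4 UMI was required the median was 0.15. Of 32 measured cell cycle genes 7 were lower and none was higher, with a median of -0.29. Mki67 itself was not among them, with 237 and 252 CPM, and its share of cells at equal depth was 17.8% and 18%. The cell cycle median was 0.13 with each cell weighted equally, 0.10 without cells above 30000 UMIs, and -0.89 with no UMI of Trdc, the C1q genes or Cd79a allowed. Nusap1, a spindle protein gene of that list, had a ratio of 0.477 (0.366 to 0.617) and kept its call in 12 of 13 settings, all but the one without dividing cells.

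**Figure D5:**
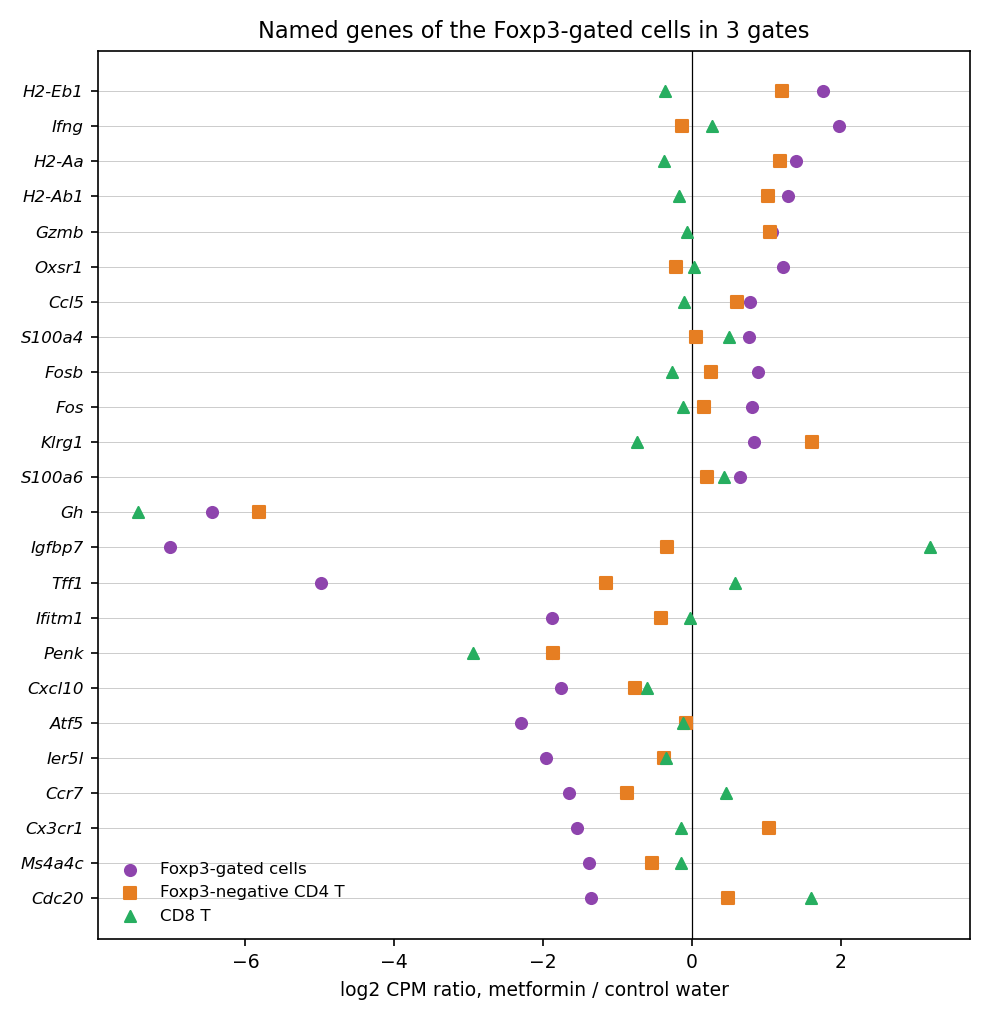
Log2 CPM ratio of metformin over control water (x axis) for the 12 highest- and 12 lowest-ranked genes of the Foxp3-gated cells (purple circles), with the same genes in Foxp3-negative CD4 T cells (orange squares) and CD8 T cells (green triangles). Values for the gated cells have 0.5 UMI added to each sum, which sets the position of Igfbp7 (0 metformin UMIs). Gzmb, Klrg1 and the MHC class II genes lie right of 0 in both CD4 populations and left of it in CD8 T cells.

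Energy metabolism, where metformin is known to act, showed no called gene in complex I. None of 37 measured complex I genes and none of 37 other genes of oxidative phosphorylation was higher or lower, with median log2 ratios of -0.06 and 0.04. Their summed levels were 6180 and 6250 CPM for complex I, and 13558 and 13186 CPM for the rest. Over all 5914 genes 1.98% were called higher and 4.16% lower. At those shares a list of 37 genes would hold few called genes. None of 11 measured genes of the AMPK and mTOR list was called, and 24 glycolysis and hypoxia genes held 1 that was higher, the glucose transporter gene Slc2a3 (1.73, 1.20 to 2.53), and 1 that was lower, Bhlhe40. Of 13 measured lipid and cholesterol genes 3 were higher, among them Hmgcs1 (1.79) and Cyp51 (1.62) of the cholesterol synthesis pathway. These 2 kept their calls in 9 and 8 of 13 settings, and the median of that list was 0.04. Transcript levels do not measure the activity of these enzymes.

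Several of the most different genes are markers of other cells or differed in other populations too. Gh, the growth hormone gene, had 1 UMI in metformin and 151 UMIs in control water gated cells, a ratio of 0.00766 with an interval of 0.000193 to 0.0433. It was also low in metformin B cells, with 0.716 and 86.5 CPM, and lower in Foxp3-negative CD4 and CD8 T cells. Igkc, an immunoglobulin gene of B and plasma cells, had a ratio of 0.102 in gated and 0.119 in CD8 T cells, and Penk, which encodes the opioid precursor proenkephalin and stands on the suppressive effector list, 0.269 in gated and 0.275 in Foxp3-negative CD4 T cells. Igfbp7 had 0 and 74 UMIs, at least 21.3-fold lower in the metformin library at a floor of 3 UMIs per library, and 33.8% of its control water UMIs lay in 1 cell. It did not differ the same way elsewhere, with 123 and 155 CPM in Foxp3-negative CD4 T cells, a ratio of 0.790, and 116 and 11 UMIs in CD8 T cells, a ratio of 9.18 (4.94 to 18.9). The MHC class II genes H2-Eb1 (3.37), H2-Aa (2.62) and H2-Ab1 (2.44) were higher. The 5 richest cells held 93.3% of the class II UMIs in the metformin and 82.5% in the control water gated cells. Without cells of at least 5 class II UMIs, 5 metformin and 9 control water cells, the 3 genes were no longer called.

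Marker lists of other cells were summed in the gate. The 12 dendritic cell genes summed to 1981 and 1377 CPM, of which the called ones were H2-Aa and Cd74, and Fscn1 was at 0 in the metformin library. The 12 macrophage and microglia genes summed to 1404 and 1124 CPM with none at 0, Cst3 higher (2.11) and Cx3cr1 lower (0.341). The 11 B cell genes summed to 545 and 799.5 CPM with Pax5 at 0 in both, the 11 NK cell genes to 1080 and 943 CPM with none at 0, Prf1 higher and Fcer1g lower, and the 9 monocyte and neutrophil genes to 627 and 767 CPM with Vcan at 0 in both. The 6 gamma-delta T cell genes summed to 2.39 and 4.14 CPM with 4 and 3 of them at 0, and the 11 brain, tumour and red cell genes to 1604 and 1663 CPM with 6 and 5 at 0, Gfap, Olig1 and Sox2 among them. The 8 genes of conventional CD4 T cells summed to 305 and 182 CPM, with Il21 at 0 in both, Ifng and Cxcr6 higher and Tnfsf8 lower. The part of such transcripts in the differences of Gzmb, Klrg1 and the other genes was not tested. Gzmb stayed at 1.78 to 2.30 in the settings that left out doublets, C1q-bearing cells or class II-bearing cells, among others.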

How the data were processed

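The deposited values were UMI counts per gene and barcode from 2 10x Genomics 3' v3 libraries, in matrix files of software version 3.0.0 per the file headers. The tools Cell Ranger and Seurat and the build mm10 are listed in the submitters' processing notes. For the counting annotation, the aligner settings and any removal of free RNA or doublets, the entry is: not given in the sources used here. UMIs of gated cells were summed per library and divided by the gate's total, with 0.5 UMI added to each sum for log2 ratios and list medians.

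Python 3.11.15 with numpy 2.4.6, pandas 2.3.3, scipy 1.17.1 and, for Scrublet (expected rate 5%), scanpy 1.11.5 was used. Foxp3-negative CD4 T cells passed the same gate with 0 Foxp3 and at least 1 Cd4 UMI. CD8 T cells met the same CD3, Trdc, C1q and Cd79a limits and had a Cd8a or Cd8b1 UMI, no Foxp3 and no Cd4 UMI. B cells had at least 2 Cd79a UMIs, no CD3 UMI and at most 3 C1q UMIs. T-gated cells had at least 1 CD3 UMI, at most 3 C1q UMIs and at most 1 Cd79a UMI. Marker shares used cells thinned to 2573 UMIs, the 10th percentile of the shallower library's gated cells, which left out 11 metformin and 23 control water gated cells. Coordinates are 1-based, from an annotation of GRCm38, the assembly behind mm10. Classes were rebuilt from counts and may differ from the study's.

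Named genes were the label markers, the measured members of the identity, suppressive effector and effector lists, the 12 highest and 12 lowest called genes of each comparison ranked by the interval bound nearest 1 and still called without the richest cell, and up to 4 members of each other list. The ranking skipped sex-linked, haemoglobin, ribosomal and mitochondrial genes and antigen receptor segments. Other genes named as examples, such as Cd40lg, Lef1, Cd200 and Ccr4, were chosen after their values were seen. Some members of the lists are not reported here. The rule for the cells, the gene lists and the tests were chosen with earlier results of these data known. Alternatives covered the Foxp3 threshold, a Cd4 UMI, stricter lineage limits, 5% mitochondrial UMIs, 1000 genes, Scrublet calls, a limit of 30000 UMIs, dividing cells, per-cell weighting, the richest cell, low-count limits of 50 or 5 UMIs and a ratio of 2. Leaving out cells with at least 5 class II UMIs was chosen after seeing the data.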

Additional observations from a re-analysis of the deposited data

Results flagged for a closer look

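Several genes moved in opposite directions in Foxp3-gated cells and in another T cell population, by the same rule of size. None of these differences was tested, since each rests on 1 library per group. Cx3cr1, the fractalkine receptor, was lower in gated cells of the metformin library, with a ratio of metformin over control water of 0.341, and higher in Foxp3-negative CD4 T cells, with 2.05. Its level in gated over Foxp3-negative CD4 T cells was 0.259 in the metformin and 1.56 in the control water library, and 1 cell held 44.3% of its metformin and 38.2% of its control water UMIs in the gate. Prf1 had a ratio of 1.64 in gated cells and 0.516 in CD8 T cells. Ahr, the aryl hydrocarbon receptor, had 1.51 in gated and 0.572 in Foxp3-negative CD4 T cells, and was not called in the gate without its richest cell. The mitotic genes Cdc20 (0.388), Ube2c (0.495) and Nusap1 (0.477) were lower in gated cells and had ratios of 3.03, 2.88 and 2.39 in CD8 T cells, and Nusap1 had 1.61 in Foxp3-negative CD4 T cells. Cdc20 had UMIs in 13 metformin and 18 control water gated cells.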

How the results depend on the processing

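No paired analysis was possible because each group is 1 library. The share ratio lay between 1.002 and 1.13 under the other alternatives and at 0.753 with no UMI of Trdc, C1q genes or Cd79a. Counts of metformin-higher, metformin-lower, gate-higher and gate-lower genes were 36, 86, 312 and 101 with limits of 50 UMIs and 50 CPM, and 13, 66, 198 and 103 with a ratio of 2. With a limit of 5 UMIs 179 were metformin-higher and 299 gate-lower. Log2 list medians moved to 0.15 for interferon genes where a Cd4 UMI was needed. They moved to -0.0888 (T cell activation), 0.84 (lipids) and -0.89 (cell cycle) under the strict lineage limits. Cell cycle moved to 0.10 without cells above 30000 UMIs, 0.11 without dividing cells and 0.13 with cells weighted equally, and the interleukin 2 list to -0.26 without dividing cells. Unthinned shares were 79.1% and 76.7% for Il2ra, 81.7% and 83.9% for Ctla4, 91.6% and 91.0% for Tnfrsf4 and 95.8% for Ikzf2 in the metformin library, and Ikzf2 was at 93.1% in control water cells with at least 2 Foxp3 UMIs. Log2 ratios that turned round were Oasl2 0.19, Mx1 0.24, Atf3 1.54 and Fcer1g 0.62 where a Cd4 UMI was needed, and Cx3cr1 0.28, Ms4a4c 0.37, Atf3 1.25 and Fcer1g 1.65 under strict limits. Without dividing cells they were Ube2c 1.35 and Cd74 -0.13. Without class II-bearing cells, a setting chosen after seeing the data, they were Mx1 0.083, Atf3 0.88, Cst3 -0.25 and Cd74 -0.53. The cause was not tested. Depth limits genes under 20 UMIs, and 191 and 223 cells limit every split.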

Other observations

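Costimulation, checkpoint and homing genes of the gated cells were set against Foxp3-negative CD4 T cells. Over all 5636 genes compared, 9.46% were higher and 3.48% lower in both libraries. Of 19 measured costimulation and TNF receptor family genes 8 were higher in gated cells in both libraries and 1, Cd40lg, was lower. Cd27 had 342 CPM in gated and 102 CPM in Foxp3-negative cells of the metformin library, and 293 and 93.7 CPM in the control water library. Of 13 measured checkpoint genes Ctla4 and Entpd1 were higher and 5 were lower: Pdcd1 (0.288 and 0.424), Cd200 (0.166 and 0.257), Btla, Cd96 and Cd226. Of 23 measured homing genes 8 were higher and 5 lower. The higher ones included Ccr4 (3.60 and 2.15) and Itgb7 (3.63 and 2.70), and the lower ones Cxcr6 (0.469 and 0.302) and Itgb1 (0.326 and 0.344). No costimulation gene was called between metformin and control water gated cells, where 1.98% of all genes were higher and 4.16% lower.

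Dividing and Cxcr3-positive gated cells each had their own pattern in both libraries. The 53 metformin and 67 control water cells with an Mki67 UMI had less Tnfrsf4 than the others (0.740 and 0.653), less Il7r (0.513 and 0.528), less Itgb8 (0.337 and 0.548) and less Gzmb (0.770 and 0.893), and more Lgals1 (1.40 and 1.51). The 115 and 116 cells with a UMI of Cxcr3, a chemokine receptor of the type 1 response, had less Il2ra (0.642 and 0.711), Ikzf2 (0.806 and 0.799) and Gzmb (0.767 and 0.763) and more Mki67 (1.75 and 1.82). The Mki67-positive cells had medians of 9115 and 9257 UMIs, against 6468 and 5274 in the others, and the Cxcr3-positive cells 8215 and 7194, against 5616 and 5322. The part of depth in these ratios was not tested.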
